A study of Mus musculus with 9 samples.

Results

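Mouse embryonic stem cells that had lost the DNA repair gene Xpc, whether 4 days earlier or for good, were set as 1 pool against cells whose floxed Xpc gene was still in place. Membership followed the labels alone: 6 arrays of deleted cells and 3 arrays of floxed cells, which are all 9 arrays of the series. The floxed cells (Xpc_f/f-Tx) carried loxP sites around Xpc and were not induced. The induced cells (Xpc_f/f+Tx_day4) were the same floxed cells 4 days after Cre-mediated deletion was induced, and the null cells (Xpc_KO) were a subcloned line with constitutive loss of Xpc. Each group had 3 arrays of Cy3-labelled total RNA. No group was induced without losing Xpc and no floxed subclone was measured, so induction, Cre and subcloning cannot be told apart from the loss of Xpc, while the loss of Xpc is what the labels give both deleted groups in common. The labels name neither the driver of Cre nor whether the arrays of a group were separate cultures, so p-values measure the spread between these arrays, which may be technical. The pooled comparison asks which genes went with Xpc in both kinds of deleted cell.

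Xpc protein recognises distortions of the DNA helix and opens nucleotide excision repair, the pathway that removes ultraviolet damage. It works in a complex with Rad23b and Cetn2. In embryonic stem cells the same complex is known as a coactivator for Oct3/4 and Sox2, the transcription factors that hold the pluripotent state, and the title of the series concerns the role of the C-terminal region of Xpc in that activity.

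The Xpc transcript was lower on all 6 deleted arrays than on all 3 floxed arrays. The array has 1 probe for it, of 60 bases, on the minus strand of mm9 at chr6:91439856-91439915. By the files' annotation it starts at position 3017 of the transcript, and the sources used here do not say whether the deletion removes it. The first 30 bases of this probe are shown because every Xpc value rests on them.
Xpc probe: tgtttggaccactttcctgggagatacctt
Values here are log2 signal relative to the 75th percentile of the array. Xpc stood at 0.59, 0.55 and 0.16 on floxed arrays 1 to 3, at -1.11, -0.68 and -1.05 on induced arrays 1 to 3, and at -0.85, -1.53 and -1.37 on null arrays 1 to 3. The lowest floxed array was floxed 3 and the highest deleted array was induced 2, and the gap between them was 0.84. The mean was 0.43 ± 0.23 (SD, n = 3) in floxed and -1.10 ± 0.32 (SD, n = 6) in deleted cells, so that the deleted cells held 34.6% of the floxed signal. The probe was well above background on all 9 arrays. The difference of -1.53 (SE 0.19) gave p = 0.0238 in a two-sided exact permutation test over arrays, the smallest that 84 splits allow. In the limma fit across all 19913 genes Xpc had the smallest p of any gene, yet its adjusted p was 0.256. On the one slide that held both kinds of cell, null array 3 minus floxed array 3 was -1.53 as well.

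No gene passed the pooled comparison. Of 19913 genes, 0 (0%) had a limma adjusted p under 0.05, and Xpc had the lowest. At an unadjusted limma p under 0.05 there were 1377 genes (6.92%), 650 of them lower (3.26%) and 727 higher (3.65%) in deleted cells. A plainer description is the count of genes whose 6 deleted arrays all lay on one side of the 3 floxed arrays. There were 689 such genes (3.46%), of which 288 (1.45%) were lower and 401 (2.01%) higher. Their differences were small, with a median of -0.33 among the lower and 0.28 among the higher genes, against 0.0056 over all genes. Among them, 106 of the lower and 87 of the higher genes had predicted or identifier names.

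Array floxed 3 weighed heavily on these counts. On the first principal component (47.3% of the variance) it stood at 24.2, beside the null arrays at 29.1 to 36.2, while floxed arrays 1 and 2 stood at -32.6 and -33.9 and the induced arrays between -22.8 and -14.9. Without it, 12 genes passed (11 higher, and Xpc the 1 lower), and 1777 genes (8.92%) were lower and 2656 (13.3%) higher without overlap. The arrays sat on 3 slides. Floxed 1 and 2 were on the first, floxed 3 and null 3 on the second, and the rest on the third. Slide and group are thus largely bound together. Only the second slide held both pools. A pooled fit with slide as a fixed block therefore gives null array 3 minus floxed array 3, without any induced array. Median local background was 29 and 29.5 on the second slide and between 39 and 46.5 on the others, and its part in the result was not tested.

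Few genes lay as far from floxed cells as Xpc in both deleted groups. Among the 689 genes without overlap, 5 were lower (0.0251% of genes) and 3 higher (0.0151%) by at least 1 on the log2 scale in induced and in null cells alike. The lower ones were Xpc, 2 clones named AU015791 and 1110065H08Rik, and 2 probes with no gene name. The higher ones were Kcnj16, an inward rectifier potassium channel, Slc38a5, a transporter of neutral amino acids, and 1 probe with no gene name. Features with clone or probe names are given here although the naming rule leaves such names out, and they were chosen after their values were seen. None of the 8 passed the pooled limma test, with adjusted p between 0.256 and 0.68.

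**Figure D1:**
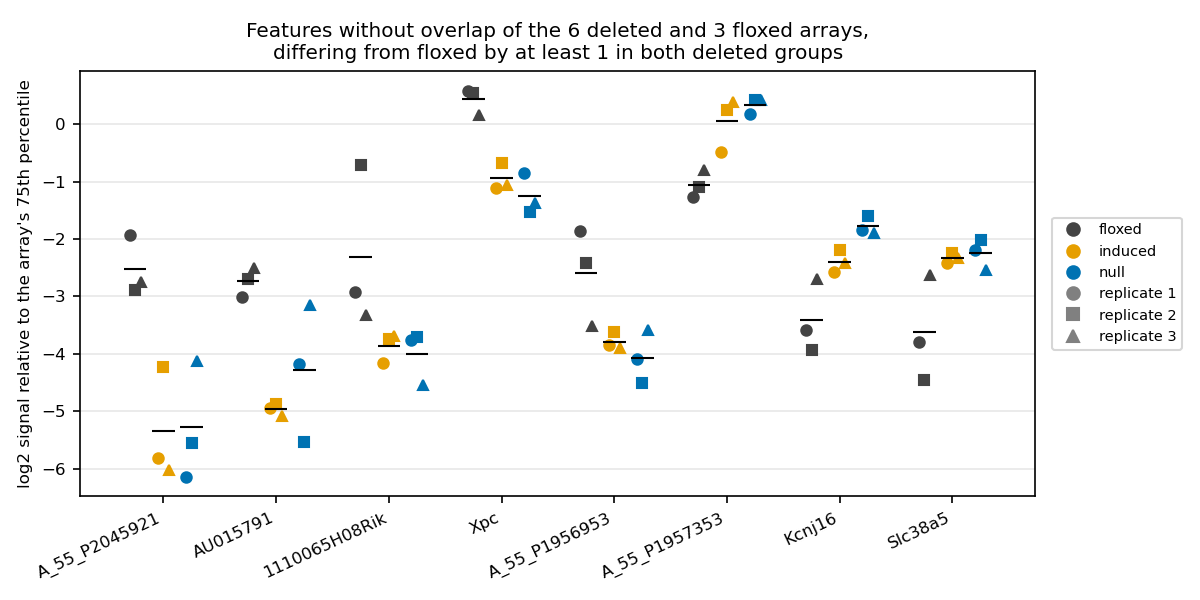
Log2 signal relative to the array's 75th percentile (vertical axis) of the 8 features without overlap that differed by at least 1 in both deleted groups; points are single arrays, coloured by group and shaped by replicate, and bars are group means. The points of Xpc lie close together within each group, while floxed array 2 of 1110065H08Rik at -0.70 and floxed array 3 of A_55_P1956953 at -3.52 stand away from their groups.

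Because features without a gene name can be looked up only by sequence, their probes are printed whole, in lower case with no part set in capitals.
A_55_P2045921: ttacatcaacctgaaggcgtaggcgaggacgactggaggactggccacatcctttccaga
AU015791: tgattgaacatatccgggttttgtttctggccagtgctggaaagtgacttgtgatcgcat
1110065H08Rik: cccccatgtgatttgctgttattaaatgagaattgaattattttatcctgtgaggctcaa
A_55_P1956953: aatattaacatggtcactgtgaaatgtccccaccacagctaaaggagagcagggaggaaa
A_55_P1957353: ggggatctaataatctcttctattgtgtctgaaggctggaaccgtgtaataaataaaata
The probe A_55_P2045921, on the plus strand of mm9 at chr9:120686800-120686859, stood at -1.93, -2.89 and -2.75 on floxed arrays 1 to 3 and between -6.14 and -4.13 on the 6 deleted arrays. It was well above background on all 3 floxed arrays and on none of the deleted ones, so only a bound can be given. It was at least 2.66-fold lower over the pool, at least 2.70-fold in induced and at least 2.62-fold in null cells.

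AU015791, at chr12:106753311-106753370 on the plus strand, lay between -3.01 and -2.50 on floxed arrays and between -5.54 and -3.14 on deleted arrays. Null array 3 was the highest deleted array, close to the floxed range. The clone 1110065H08Rik (chrX:132518102-132518161, plus strand) was at -2.92, -0.70 and -3.32 on floxed arrays and between -4.54 and -3.70 on deleted arrays, so much of its difference of -1.62 came from floxed array 2. The probe A_55_P1956953 (chr19:35125731-35125790, minus strand) was at -1.87, -2.41 and -3.52 on floxed arrays, and the highest deleted array, null 3, was at -3.59. Each of these 3 features was above background on all floxed arrays and on 1 deleted array, so its differences rest on values near background. AU015791 was above background on no induced array, where it was at least 2.71-fold lower, and the other 2 on no null array, where they were at least 2.62-fold (1110065H08Rik) and at least 2.44-fold lower. The probe A_55_P1957353 has no mm9 position in the files. It lay above the floxed range of -1.26 to -0.80 on every deleted array, from -0.48 on induced array 1 to 0.43 on null array 2, and was above background on all 9 arrays. It passed once induced array 1 was left out, as the only gene then to do so.

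Kcnj16 and Slc38a5 were near background in floxed cells. The first 30 bases of their probes, at chr11:110889223-110889282 and chrX:7857241-7857300 of mm9 on the plus strand, are shown for the same reason.
Kcnj16 probe: ttataacatgctttgacacgcctgatggct
Slc38a5 probe: cctagatgaagctgttagggttaccctggc
Kcnj16 was at -3.59, -3.94 and -2.70 on floxed arrays, at -2.58, -2.19 and -2.41 on induced arrays and at -1.84, -1.60 and -1.89 on null arrays. Slc38a5 was at -3.79, -4.46 and -2.63 on floxed arrays, between -2.43 and -2.24 on induced arrays and between -2.54 and -2.02 on null arrays. Both were above background on 1 floxed array and on all 6 deleted arrays, and floxed array 3 was the highest floxed array of both. On the slide shared by both kinds of cell, null array 3 exceeded floxed array 3 by 0.81 for Kcnj16 and by 0.09 for Slc38a5. The smaller of the 2 group differences was 1.02 for Kcnj16, the last feature inside the limit of 1, and 0.88, 0.86 and 0.86 for Lag3, Art3 and Tbx21, the first ones outside.

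The named genes of smallest p that were lower on all 6 deleted arrays spanned secreted and cell surface proteins, peptidases, kinases and keratins. None passed, with limma adjusted p of 0.256 for Xpc and between 0.556 and 0.628 for the other 14. Efna5, a membrane-bound ligand of Eph receptors, was between -1.04 and -0.60 on floxed arrays and between -2.03 and -1.43 on deleted arrays, a difference of -0.77 (SE 0.15), with -0.66 in induced and -0.88 in null cells. Zyx, the focal adhesion protein zyxin, differed by -0.52 in induced and -0.52 in null cells, from 2.44, 2.44 and 2.71 on floxed arrays to between 1.88 and 2.17 on deleted ones. Zyx thus lay at the same distance from floxed cells in either kind of deleted cell. Cpz, a secreted carboxypeptidase, was at -1.43, -1.53 and -1.53 on floxed arrays, at -2.13, -1.90 and -2.11 on induced arrays and at -2.56, -2.47 and -2.60 on null arrays. Its 3 groups did not overlap with each other, and null cells lay below induced cells (limma adjusted p = 0.0429 for null minus induced).

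Lhb, the beta subunit of luteinizing hormone, differed by -0.91, Phlda1, a pleckstrin-homology-like protein, by -0.65, and Srms, a tyrosine kinase related to Src, by -0.68. Cpe, the carboxypeptidase that trims prohormones, differed by -0.45 at its brightest probe and by -0.45 at the first of its 2 others. Cdk14, a cyclin-dependent kinase, was at -0.61 and its other probe at -0.79. For Krt85, a hair keratin, the brightest probe gave -0.64 and the other probe 0.12, so the 2 probes disagree. Slc25a4, the ADP/ATP carrier of mitochondria, was at 6.96, 7.20 and 6.97 on floxed arrays and between 6.52 and 6.83 on deleted arrays. Art3, of the ADP-ribosyltransferase family, was at -2.28, -1.82 and -2.05 on floxed arrays and between -4.09 and -2.81 on deleted arrays, above background on 5 of them. Tmcc3 (-0.62), Lrrc36 (-0.57) and Krt8 (-1.15) complete the set, and Krt8 is described with the epithelial genes.

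The 15 named genes of smallest p that were higher on all 6 deleted arrays included transcription factors, a cilium gene and enzymes of sugar metabolism. None passed the pooled test, with limma adjusted p between 0.454 and 0.556. Tmem67, which encodes the ciliary membrane protein meckelin, was at -2.37, -2.42 and -2.30 on floxed arrays and between -1.97 and -1.67 on deleted arrays, a difference of 0.55 (SE 0.09). Gli1, the transcription factor and target of Hedgehog signalling, was at 2.71, 2.70 and 2.56 on floxed arrays, at 3.06, 3.16 and 3.35 on induced arrays and at 3.27, 3.50 and 3.32 on null arrays. Tfeb, a master factor of lysosome genes, was at -0.73, -0.60 and -0.92 on floxed arrays and between -0.37 and 0.03 on deleted arrays. For Tmem67 and Gli1 the floxed arrays lay close together, floxed array 3 included, while for Tfeb they were spread more widely.

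Tbx21 (the T cell factor T-bet), Lag3 (an inhibitory receptor of T cells) and Pde6a (a phosphodiesterase subunit of rod photoreceptors) were higher by 0.98, 0.93 and 0.78. Each was above background on 1 floxed array, and on 6, 6 and 5 deleted arrays in that order. Their signals lay between -4.01 and -3.16 on floxed arrays and between -3.01 and -2.42 on deleted arrays. Aldoc, an aldolase of glycolysis, was at 2.96, 2.78 and 3.19 on floxed arrays, at 3.59, 3.58 and 3.41 on induced arrays and at 3.80, 4.01 and 3.92 on null arrays. Gfpt2, the entry enzyme of the hexosamine pathway, was higher by 0.48, Gstt1, a glutathione transferase, by 0.46, and Mras, a Ras-like GTPase, by 0.66. Psd3, an exchange factor for Arf6, was higher by 0.69, the complement protease gene C1s2 by 0.43, Osbpl10, an oxysterol-binding-protein relative, by 0.42 and Fam168a by 0.56. Chrna9, a nicotinic receptor subunit, was higher by 0.51 at its brightest probe and at -0.34 at the other, and the other probe of Gstt1 was at -0.04, so neither gene's direction was shared by both its probes.

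**Figure D2:**
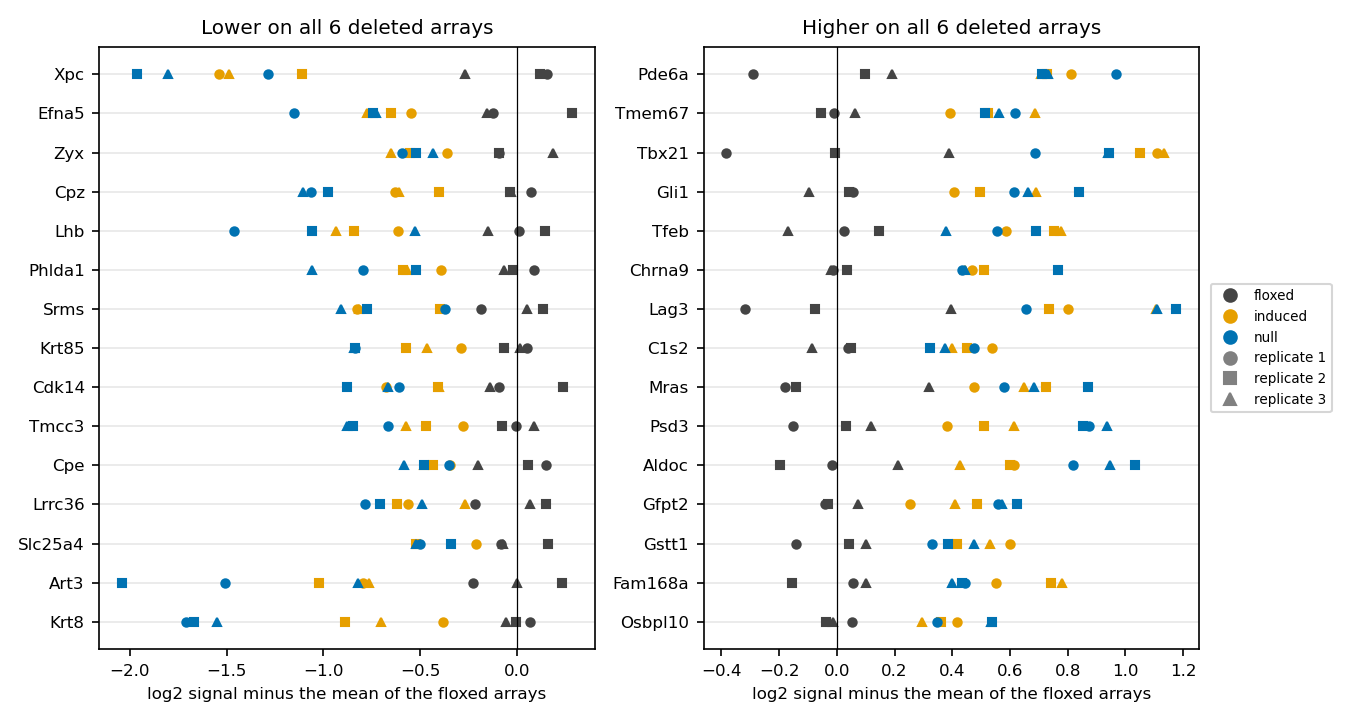
Log2 signal minus the mean of the 3 floxed arrays (horizontal axis) for the 15 genes of smallest p that were lower (left) or higher (right) on all 6 deleted arrays; each point is 1 array, coloured by group and shaped by replicate. Induced and null arrays overlap for Zyx, Srms and Tmem67, while for Krt8 and Cpz the null arrays lie beyond the induced ones.

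Pooling places the difference between induced and null cells in the error, and the result turned on that choice. The median residual SD was 0.20 with 1 pool of deleted arrays and 0.18 with separate means for the 3 groups. In the limma fit with 3 group means, 59 genes (0.296%) passed for the average of both deleted groups against floxed, 46 of them lower (0.231%) and 13 higher (0.0653%). Xpc was at adjusted p = 0.0136 in that fit. Of the 59, 31 had no overlap between deleted and floxed arrays, 56 differed from floxed by more in null than in induced cells, and 44 also passed for null against induced cells (438 of all genes did, or 2.2%). So most of the 59 genes lay farther from floxed in null than in induced cells. The same share over all genes was not counted, and 368 genes passed against floxed in null cells but 1 in induced cells. Some of the 59 differed by nearly as much in both groups, such as Pde6a (0.75 in induced and 0.80 in null cells).

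Both deleted groups share the floxed arrays. With 3 group means and limma, 1 gene (0.00502%) passed in induced against floxed cells and 368 (1.85%) in null against floxed cells, and the 1 gene that passed in both with the same sign (0.00502%) was Tmem95, which encodes a sperm membrane protein. Its signal was -5.00, -5.29 and -4.98 on floxed arrays, -3.32, -3.42 and -3.01 on induced arrays and -4.35, -4.54 and -4.28 on null arrays. It was above background on all 3 induced arrays and on no floxed or null array. Set against the dimmest probe well above background on each floxed array, it was 1.19-fold higher in induced cells. Its call there (limma adjusted p = 0.00802) rests on floxed values that were not above background, so it gives no size. Its call in null cells (limma adjusted p = 0.0448) compares values not above background on either side, so no size is given for it. The count of such genes was 0 under 7 other settings, among them quantile normalization, and 0 when any 1 array other than floxed 3 was left out.

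Genes of cell shape and adhesion that passed with 3 group means and had no overlap were chosen for naming after their values were seen. Tagln, which encodes the actin-binding protein transgelin, was at 4.77, 4.76 and 4.54 on floxed arrays, at 4.42, 3.88 and 3.94 on induced arrays and at 2.47, 2.74 and 2.65 on null arrays. Tpm1, a tropomyosin, was at 3.46, 3.43 and 3.34 on floxed arrays, between 2.94 and 3.18 on induced arrays and between 2.41 and 2.56 on null arrays. Twist2, a mesenchymal transcription factor, was at -2.96, -2.93 and -3.05 on floxed arrays, between -3.40 and -3.18 on induced arrays and between -5.71 and -4.88 on null arrays, where it was not above background and at least 1.91-fold lower. Floxed above both deleted groups follows from the choice of genes without overlap. Null lay below induced in each, and 56 of the 59 genes that passed differed from floxed by more in null cells.

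The keratins Krt8 and Krt19, the intermediate filaments of simple epithelia, had no overlap either and were also lowest in null cells. Krt8 was at 4.52, 4.44 and 4.39 on floxed arrays, at 4.06, 3.56 and 3.74 on induced arrays and at 2.74, 2.78 and 2.90 on null arrays, and its other probe gave a pooled difference of -1.24 beside -1.15. Krt19 was at 2.19, 1.99 and 2.09 on floxed arrays, at 1.69, 1.41 and 1.41 on induced arrays and between 0.44 and 0.61 on null arrays. Zfp703, a zinc finger repressor, was at 0.23, 0.07 and 0.24 on floxed arrays, between -0.65 and -0.28 on induced arrays and between -2.21 and -1.98 on null arrays (adjusted p = 0.00467 by limma with 3 group means). The induced mean of each lay nearer to the floxed than to the null mean.

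The same held for Dsp, which encodes the desmosome protein desmoplakin (-0.26 in induced and -1.13 in null cells), Scarf2, a scavenger receptor (-0.34 and -1.63), and Irs1, an adaptor of the insulin receptor (-0.33 and -1.06). It held for Cdkn2b, an inhibitor of cyclin-dependent kinases (-0.34 and -0.85), Gng12, a G protein subunit (-0.30 and -1.18), and Osbpl5, a lipid transfer protein (-0.25 and -0.95). Cxcl10, a chemokine, was at -0.58 in induced cells and at least 4.05-fold lower in null cells, where it was above background on no array. Eva1c was at -0.49 and -1.14. In the other direction, Ceacam20, a cell adhesion protein, was at 0.52 and 1.78, with 0.35 pooled at its other probe, and Thsd1, a thrombospondin-domain membrane protein, at 0.47 and 1.11. Among the 288 lower genes without overlap the difference was larger in null than in induced cells for 221, and among the 401 higher ones for 312. The same share over all genes was not counted, and 368 genes passed against floxed in null cells but 1 in induced cells. The rest of the 59 genes overlapped on at least 1 array. Acta2, smooth muscle actin, is an example, at -0.74 in induced and -3.55 in null cells.

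**Figure D3:**
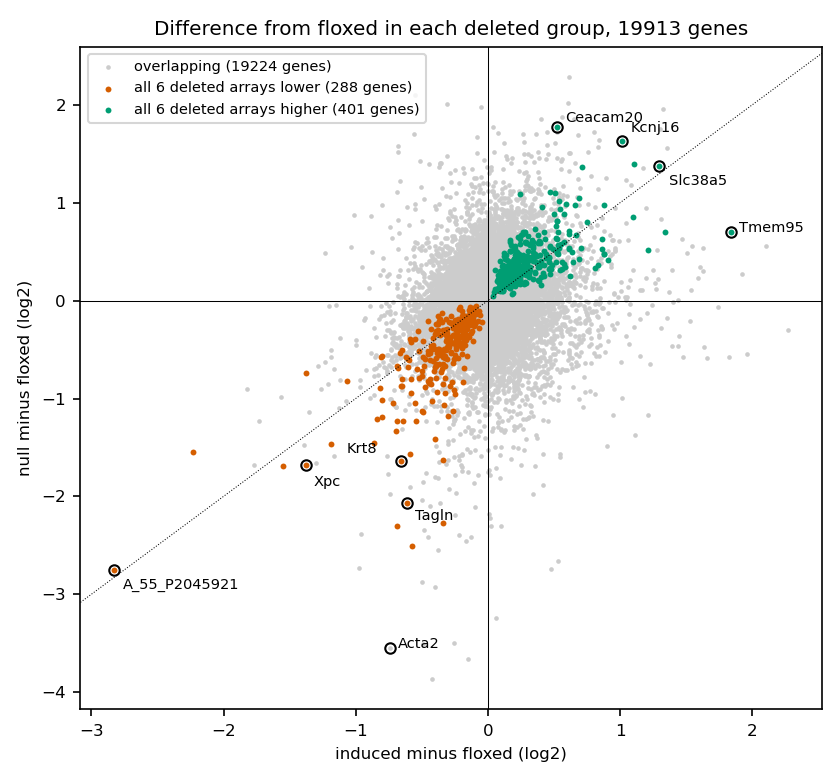
Log2 difference of induced from floxed cells (horizontal axis) against that of null from floxed cells (vertical axis) for all 19913 genes, with genes lower or higher on all 6 deleted arrays in colour and a dotted line of equal differences. Both axes share the floxed arrays, so the tilt of the cloud is not evidence of likeness; Xpc lies near the dotted line, and Krt8, Tagln and Acta2 far below it.

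Genes that followed Xpc array by array were found by Pearson correlation over the 9 arrays, which is a description since the 9 points share the deletion. The highest were Rap2a, a Ras-like GTPase (r = 0.96), Cdk14 (0.94), Cpe (0.93), Hspa4l, a heat shock protein of the Hsp110 family (0.93), Srms (0.91) and Cpz (0.91), followed by Exd1 (0.90), Tceal5 (0.90), Tmcc3 (0.89) and Arap3 (0.89). Their sizes were far from that of Xpc, and Srms lay near background on deleted arrays. Rap2a was at 0.17, 0.16 and 0.08 on floxed arrays and between -0.16 and 0.03 on deleted arrays, a difference of -0.20, and Hspa4l differed by -0.18, Arap3 by -0.32, Tceal5 by -0.35 and Exd1, of the piRNA pathway, by -0.40. The lowest were Lag3 (r = -0.96), Osbpl10 (-0.96), Glo1, the glyoxalase that detoxifies methylglyoxal (-0.95), Xaf1, an apoptosis factor induced by interferon (-0.94), and Cysrt1 (-0.94). Cysrt1 was higher by 0.82, Xaf1 by 0.52 and Glo1 by 0.22 in deleted cells. All 15 had no adjusted p under 0.05 in the pooled limma test.

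The factors with which Xpc is known to work in stem cells did not separate. Pou5f1, which encodes Oct3/4, was at 4.78, 4.98 and 4.74 on floxed arrays, at 5.42, 4.67 and 4.32 on induced arrays and at 4.67, 4.28 and 3.92 on null arrays, so the pools overlapped. Sox2 was at 4.17, 4.29 and 3.82 on floxed arrays and between 3.85 and 4.15 on deleted arrays. The pooled differences were -0.29 (SE 0.27) for Pou5f1, -0.08 (SE 0.12) for Sox2, -0.28 (SE 0.24) for Nanog, 0.09 (SE 0.24) for Klf4, -0.10 (SE 0.27) for Esrrb and -0.01 (SE 0.17) for Zfp42, which turned to 0.050 under quantile normalization, none past the limma test (adjusted p between 0.786 and 0.995). Floxed array 3 was the lowest floxed array for Sox2, Nanog, Klf4, Esrrb and Zfp42, and without it Klf4 was at -0.30. These 6 genes were well above background on all 9 arrays, as were all 18 pluripotency factors measured, of which 9 were lower and 9 higher with a median difference of 0.02. Without floxed array 3 that median was -0.24, with 6 lower and 1 higher without overlap. Of all genes, 8.92% were lower and 13.3% higher in the same setting.

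The partners of Xpc and the genes of the repair pathway overlapped with floxed levels. Rad23b, which stabilises Xpc, was at 3.60, 3.64 and 3.86 on floxed arrays and between 3.66 and 3.92 on deleted arrays, and its other probe gave a difference of 0.07 beside 0.09. Cetn2, the centrin of the complex, was at 2.42, 2.49 and 3.01 on floxed arrays and between 2.64 and 3.20 on deleted arrays, a difference of 0.28 (SE 0.17). Of the 26 partners and excision repair genes measured, 12 were lower and 14 higher, none passed or separated, and the median was 0.03. The ends of the range were Xpa, the damage verification factor, at -0.37 (0.16 in induced and -0.89 in null cells) and Cetn2 at 0.28. Without floxed array 3, 5 members were lower and 5 higher without overlap, and the median was 0.0018. The shares of all genes in that setting were 8.92% lower and 13.3% higher.

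The other lists are described by counts and medians beside those of all genes, where 1.45% were lower and 2.01% higher without overlap. With floxed array 3 left out, these shares were 8.92% and 13.3%. Listed genes that were dim in every group did not pass the filter on dim probes and are in no count. No member of any of the 22 lists passed the pooled test, and 13 lists had no member without overlap. Of 22 contractile genes and targets of the serum response factor SRF, 21 were measured. Tagln, Tpm1 and Zyx were lower on all deleted arrays (14.3%). The median was -0.14, or -0.08 without floxed array 3. With slide as a block, which sets null array 3 alone against floxed array 3, it was -0.43. Acta2 (-2.15), Acta1, skeletal actin (-1.85), and Cald1, caldesmon (-0.89), were lower on average but overlapped. Ankrd1 was above background on no null array, where it was at least 2.43-fold lower, while Actb, the common cytoplasmic actin, was at 0.01 and Vcl, vinculin, at -0.05. Of 12 epithelial markers (of 13), Krt8, Krt19 and Cldn3, a tight junction claudin (-0.32), were lower without overlap (25%). Cdh1 at 0.0043 and Epcam at -0.02, the surface proteins that define epithelium and embryonic stem cells alike, were not. In the whole list 8 members were lower and 4 higher, with a median of -0.16. The median was -0.28 in induced and 0.10 in null cells, and the pooled one was 0.018 without floxed array 3.

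Markers of other cell types were counted beside these genes, with some genes on both sides: Tagln and Acta2 are also fibroblast markers here, and Krt8 and Krt18 are also trophectoderm genes. Of 10 fibroblast markers measured (of 16), 8 were lower, with a median of -1.02 (-0.28 in induced and -1.65 in null cells), and Tagln and Twist2 were lower without overlap. Their summed signal, in units of the array's 75th percentile, was 110.8 to 172.6 on floxed, 139.4 to 144.8 on induced and 105.5 to 112.1 on null arrays, a sum to which Fn1 contributes most. By the mean log2 level of the list, floxed array 3 stood at 0.89 beside 1.03 and 1.05 on floxed arrays 1 and 2, 0.67 to 0.78 on induced and -0.39 to -0.24 on null arrays. Col1a1 (-1.31) and Col1a2 (-1.22), chains of fibrillar collagen, were lower on average with overlap, and Vim was at 0.03 and Thy1 at 0.70. Of 15 trophectoderm genes (of 17), 8 were lower and 7 higher with a median of -0.20 (-0.34 without floxed array 3 and -0.34 with slide as a block), and Krt8 was the 1 without overlap. Cdx2, the factor that defines that lineage, was at -0.49 in induced cells and at least 3.84-fold lower in null cells, where it was above background on no array. The summed signal of the trophectoderm list was 87.3 to 122.5 on floxed, 76.0 to 101.6 on induced and 44.2 to 47.2 on null arrays. Twist2 and Col3a1 of the fibroblast list were also above background on no null array. The part of either list in the keratin and contractile differences was not tested, and fewer cells of a type and less RNA per cell cannot be told apart in bulk samples.

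Genes of cholesterol synthesis were higher as a group, with little separation. All 24 listed genes were measured and 23 were higher, with a median of 0.39 (0.13 in induced and 0.63 in null cells) against 0.0056 over all genes. Insig1, the sterol-sensing anchor of the SREBP pathway, was the 1 without overlap (4.17%), at 0.73. Idi1 (0.66), Dhcr7 (0.64) and Cyp51 (0.58), enzymes of the pathway, overlapped between the pools, and Ebp at -0.03 was the only member lower. Without floxed array 3 the median was 0.62, with 20 members higher and 0 lower without overlap (13.3% and 8.92% of all genes). It was 0.12 with slide as a block. Size and separation thus depended on which floxed arrays counted.

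Hypoxia and glycolysis genes had a similar pattern, 20 of 25 measured (of 28) higher with a median of 0.31 (0.17 in induced and 0.49 in null cells). Aldoc (0.74) and Pdk1, the kinase that holds back pyruvate dehydrogenase (0.26), were higher without overlap, and Hk1, a hexokinase, was lower (-0.24). Egln3, the oxygen-sensing prolyl hydroxylase (0.79), Bnip3 (0.68) and Ldha, lactate dehydrogenase (0.52), overlapped, and Vegfa was at -0.44. Without floxed array 3 the median was 0.53, with 17 members higher and 2 lower without overlap (13.3% and 8.92% of all genes). It was 0.11 with slide as a block. Of 23 G2/M genes (of 24), 21 were higher by little (median 0.11, with 0.10 in induced and 0.10 in null cells). The motor gene Kif11 (0.23) and the checkpoint kinases Bub1 (0.21) and Bub1b (0.16) were higher on all deleted arrays, 13% of the list. The largest pooled difference of a member was 0.24, for Top2a, and the largest in null cells 0.48, for Kif23. With slide as a block the median was 0.011.

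Targets of p53, the factor that responds to DNA damage, leaned the other way. Of 23 measured (of 24), 20 were lower, with a median of -0.11 (-0.11 in induced and -0.18 in null cells). Plk2, a polo-like kinase, was the 1 without overlap (4.35%), at -0.43. Cdkn1a, the cell cycle inhibitor p21, was at -0.34, Mdm2 at -0.30, Perp at -0.43 and Phlda3 at -0.33, all overlapping, and Trp53 itself was at 0.01. Both deleted groups had medians of the same sign. Mdm2 was at -0.23 in induced and -0.37 in null cells, and Perp at -0.42 and -0.44. Without floxed array 3 the median of the list was -0.16, with 9 members lower and 1 higher without overlap. Of all genes, 8.92% were lower and 13.3% higher in that setting.

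Lists led by 1 deleted group were visible as well. Targets of the stress factor Atf4 had 21 of 22 measured members (of 23) lower, with a pooled median of -0.46, yet the median was 0.10 in induced and -1.11 in null cells, and none separated from floxed cells. Floxed array 3 stood apart for these genes. Chac1 was at 3.57, 3.53 and 0.68 on floxed arrays, between 2.95 and 3.34 on induced and between -0.26 and 0.05 on null arrays, and Nupr1 at 3.16, 3.22 and 0.31 on floxed, between 2.62 and 2.86 on induced and between -0.74 and -0.27 on null arrays. Induced arrays thus lay below floxed arrays 1 and 2 and above floxed array 3. Without floxed array 3 the pooled median of the list was -0.83, with 11 members lower and 0 higher without overlap. Of all genes, 8.92% were lower and 13.3% higher in that setting. Genes of the primed epiblast were higher for all 11 measured (of 12), with a pooled median of 0.34 but medians of -0.09 in induced and 1.04 in null cells. The pooled median moved to 0.82 without floxed array 3. It was 0.12 once slide was a block. Of 11 interferon response genes (of 20), Isg20 was lower (-0.38) and Stat2 (0.27) and Ifitm2 (0.21) higher without overlap, with a median of 0.05 that was 0.18 without floxed array 3 and -0.13 with slide as a block. The 8 lists not yet described had no member without overlap. Their medians were 0.15 for primitive endoderm (7 genes), -0.39 for mesoderm and primitive streak (8), 0.14 for neural genes (9), -0.20 for YAP-TEAD targets (16), 0.04 for Wnt targets (10), 0.19 for 2-cell-like genes (11), -0.01 for germline genes (17) and 0.24 for blood and endothelium markers (7). Without floxed array 3 the medians of primitive endoderm and of mesoderm and primitive streak turned to -0.046 and 0.089, while 2-cell-like genes were at 0.52, Wnt targets at 0.087, germline genes at -0.020, blood and endothelium markers at 0.41 and neural genes at 0.088. With slide as a block the signs of primitive endoderm (-0.28), Wnt targets (-0.072) and 2-cell-like genes (-0.59) turned, the mesoderm list was at -0.79, germline genes at -0.19 and blood and endothelium markers at 0.0030.

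**Figure D4:**
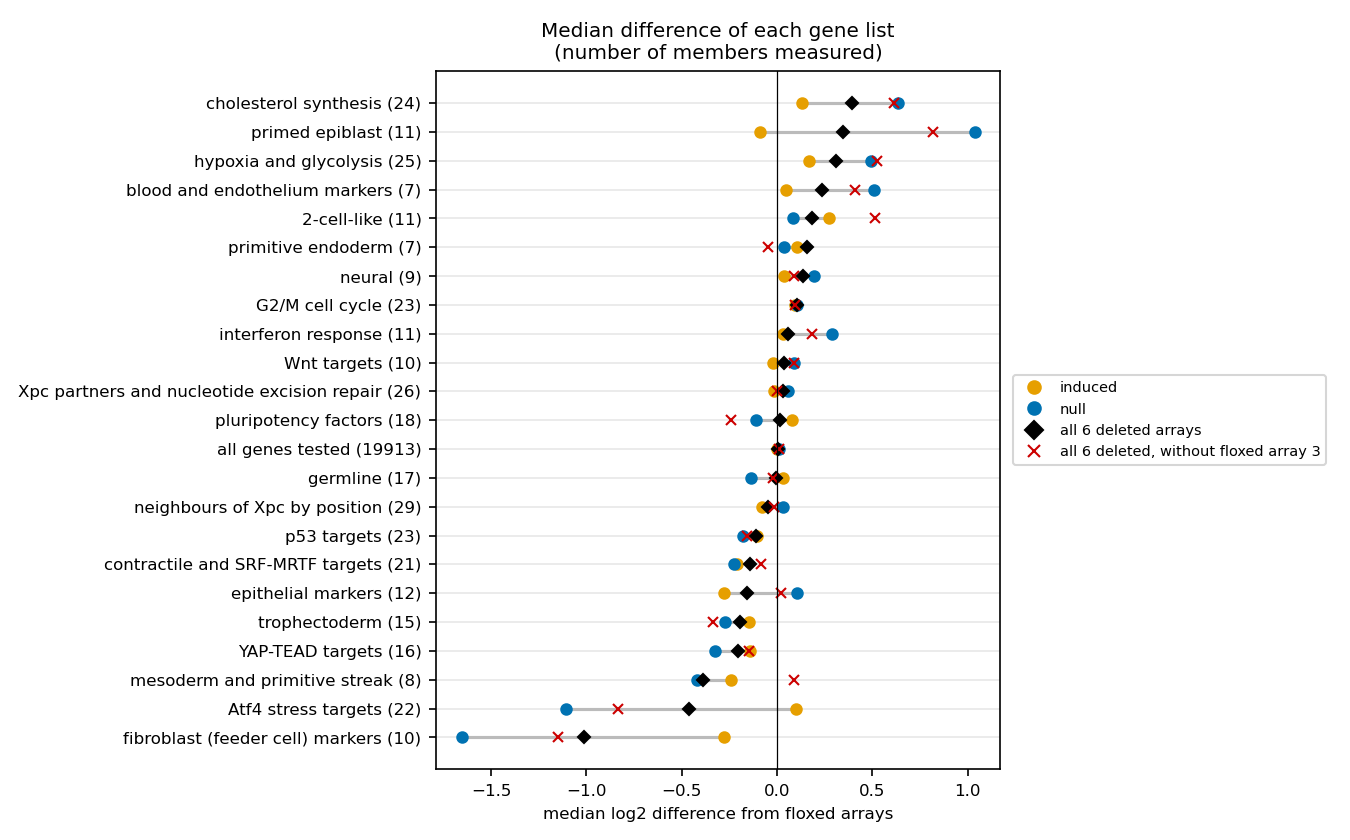
Median log2 difference from floxed arrays (horizontal axis) of each gene list and of all genes tested, with the number of members measured in brackets; diamonds pool all 6 deleted arrays, circles give induced and null cells and crosses leave out floxed array 3. The G2/M and p53 lists lie together for both groups, while Atf4 targets, primed epiblast genes and fibroblast markers are spread wide.

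Genes beside Xpc on chromosome 6 lay close to floxed levels. Of 29 genes and transcribed regions whose probes lie within 1 Mb of the Xpc probe, 18 were lower and 11 higher, with a median of -0.05, and none separated deleted from floxed arrays. Tmem43 was at -0.18, Chchd4 at 0.08 and Lsm3 at 0.18. Hdac11, a histone deacetylase, was above background on no floxed array and on all 6 deleted arrays, yet the pools overlapped. Its measured mean was 1.53-fold higher in induced and 1.36-fold higher in null cells, against floxed values not above background.

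Because the study concerns Oct3/4, the promoters of the genes without overlap were searched for the octamer that Oct3/4 binds, ATGCAAAT on either strand, in the 250 bases before each start in RefSeq's GRCm38.p6 table. The search covered 197 promoters of 142 lower genes and 339 promoters of 269 higher genes. The octamer was found in 4 lower (2.03%) and 10 higher promoters (2.95%), against 1.2% of the promoters of genes tested and 1.6% of all promoters. The GC box GGGCGG on either strand was in 56.9% and 60.2%, against 55.2% of the promoters of genes tested. A match is a description of letters and not a site. The lower genes were Patj, Asb13, Opa3 and Phc2, and Patj had the largest difference of them, -0.51 (-0.19 in induced and -0.84 in null cells). Patj encodes a scaffold protein of tight junctions. Among the higher genes was Blnk, an adaptor of B cell receptor signalling, at 0.48 (0.27 and 0.70). Both promoters are printed with the octamer in capitals, as the letters read on the gene's strand, and both genes were chosen after their values were seen.
Patj promoter, chr4:98546384-98546633, plus strand: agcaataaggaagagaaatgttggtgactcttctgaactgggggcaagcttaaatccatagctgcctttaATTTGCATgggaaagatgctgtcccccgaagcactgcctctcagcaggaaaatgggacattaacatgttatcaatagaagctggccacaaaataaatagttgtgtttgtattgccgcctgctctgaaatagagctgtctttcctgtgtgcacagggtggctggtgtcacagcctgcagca
Blnk promoter, chr19:40994222-40994471, minus strand: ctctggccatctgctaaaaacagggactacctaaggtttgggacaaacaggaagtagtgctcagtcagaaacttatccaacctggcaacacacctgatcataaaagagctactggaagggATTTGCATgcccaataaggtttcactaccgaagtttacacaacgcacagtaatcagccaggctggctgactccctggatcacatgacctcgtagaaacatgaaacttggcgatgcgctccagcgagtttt
The octamer lies at position -180 from the start of Patj and -130 from that of Blnk, in both cases as its reverse complement. Neither gene passed the pooled limma test (adjusted p = 0.712 for Patj and 0.681 for Blnk).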

How the data were processed

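Each sample's RNA was hybridised to 1 Agilent 1-colour array. Per the file headers, the deposited scanner files hold spot intensity written by Agilent Feature Extraction 10.7.3.1, with the processed signal background-subtracted and detrended within the array and probes placed on mm9. The deposited series matrix holds the mean signal as intensity. All its columns matched a sample (0 left over).

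Of 62976 spots, control and outlier spots (148 to 188 per array) were left out. The processed signal was divided by the array's 75th percentile (346 to 471) and taken to log2. Probes were kept (27536) if some group had them well above background on each of its arrays, and 2 were dropped as outliers. Names came from RefSeq (27235 probes) or the files (28446). The brightest probe stood for a gene. Between 47.4% and 57.9% of spots were well above background and 0 were saturated, and the number of arrays limits precision.

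The pooled fit used limma 3.58.1 in R 4.3.3 (lmFit, eBayes, two-sided, Benjamini-Hochberg over 19913 genes, threshold 0.05), 6 deleted against 3 floxed arrays. It was run on simulated data with independent noise and the same shift on all 6 deleted arrays. Those data held no slide effect, no deviating floxed array and no difference between induced and null cells, so the run does not cover these. Where the lower pool had a gene above background nowhere, the fold was set against a limit on each array. That limit is the higher of the probe's own value and the dimmest probe well above background. It is lenient, since brighter probes can also fail that call. Each fold given as at least holds against that limit only. A gene lacks overlap if all 6 deleted arrays lie on one side of all 3 floxed arrays.

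The rule for named genes took Xpc, 6 stem cell factors, 2 partners, up to 15 genes in each direction that passed, filled up with genes of smallest p without overlap, genes past the threshold in both deleted groups, genes without overlap that differed by at least 1 in both groups, the 10 highest and 5 lowest correlations with Xpc, and up to 3 passing members of each list. Clone and identifier names were to be counted only. Members, lists and rules were chosen with earlier results of these data known. Alternatives covered normalization, background, filters, probes, slide, replicate number, each array left out and 3 group means. A few list members are not reported here.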

Additional observations from a re-analysis of the deposited data

Results flagged for a closer look

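By Dixon's ratio of its gap to the whole range, 1 of the 6 deleted arrays stood apart for 3 of the 69 named features. Chance alone gives this in about 1 of 20 groups, so 3 of 69 is near that rate. The 6 arrays mix induced and null cells, for which the rate is only approximate. The ratio was 0.626 for Efna5, where null array 1 was the lowest, 0.77 for Chrna9, where null array 2 was the highest, and 0.723 for A_55_P1957353, where induced array 1 was the lowest.

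For 16 of the 69 named features, induced and null cells differed from each other in the limma fit with 3 group means. Their pooled difference is thus an average of unequal ones. Of all genes, 438 (2.2%) differed in this way. The 16 had also passed that fit for the average of both deleted groups, as 59 genes did, of which 44 differed between induced and null cells. The count thus follows how genes were chosen for naming. Null minus induced was -1.46 for Tagln, -0.55 for Tpm1 and -1.93 for Twist2 among contractile and mesenchymal genes, and -0.98 for Krt8, -0.98 for Krt19 and -0.87 for Dsp among epithelial ones. Among signalling and transport genes it was -1.93 for Cxcl10, -0.87 for Gng12, -0.73 for Irs1, -0.70 for Osbpl5 and -1.29 for Scarf2. Zfp703 was at -1.62, Cdkn2b at -0.51 and Cpz at -0.50. Ceacam20, at 1.26, was the 1 gene higher in null cells. Tmem95, at -1.14, was higher in induced than in null cells. Twist2, Cxcl10 and Tmem95 were above background on no null array, so their differences are measured means and not sizes.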

How the results depend on the processing

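Xpc kept its direction under every setting tried, between -1.67 and -1.20, and had the smallest p of all genes under 14 of 22 settings (rank 77 at worst, with slide as a fixed block). It passed the pooled limma test with series matrix values (-1.20, adjusted p = 0.0389) and without floxed array 3 (-1.67, adjusted p = 0.0462). In the separate limma fit with 3 group means it passed for the average of both deleted groups (-1.53, adjusted p = 0.0136). Leaving out 1 array gave -1.67 to -1.45 in the pooled fit. With 3 group means it passed without floxed array 3 (-1.67), induced array 1 or 2 (-1.49 and -1.60) and any null array (-1.63, -1.46 and -1.50), and not otherwise.

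The pooled count of 0 was 1 with series matrix values. The fit with 3 group means, which is not the pooled test, gave 59. Leaving out 1 array gave 0 to 12 genes in the pooled fit (12 without floxed array 3, 1 without induced array 1) and 0 to 2290 with 3 group means, an alternative chosen after seeing the data (0 without floxed array 1, 4 and 2290 without floxed arrays 2 and 3, 31, 13 and 10 without induced arrays 1 to 3, 20, 16 and 33 without null arrays 1 to 3). The 689 genes without overlap became 795 to 4433 without 1 array (1171, 1118 and 4433 without floxed arrays 1 to 3, 1708 without induced array 1, 1245 without null array 3). The gene that passed in both deleted groups was lost (0) under quantile normalization, normexp, series matrix values, no filter, a filter on all 9 arrays, a trended robust fit and slide as a random block. Slide as a fixed block, which rests on floxed array 3, gave 13, and leaving out 1 array gave 0 to 125 (125 without floxed array 3). The cause of these shifts was not tested.

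Genes near 0 turned sign. Zfp42 was at 0.050 with quantile normalization, 0.024 with normexp, and 0.23 and 0.021 with slide as a fixed and a random block. With slide fixed, which leaves null array 3 against floxed array 3, Sox2 was at 0.14, Esrrb at 0.22 and Rad23b at -0.091. Leaving out 1 array moved Zfp42 between -0.24 and 0.12, Sox2 between -0.22 and 0.018, Esrrb between -0.42 and 0.10 and Klf4 between -0.30 and 0.32, with the lowest value of each without floxed array 3. Other named genes kept their direction under the settings in which they were measured.

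Arrays of the same number showed no sign of deviating together (correlations of -0.106 to 0.0873, and 3 of 9 arrays correlated best with their own number). With 3 arrays in each group this check cannot exclude a pairing by number. A replicate block left 0 genes in the pooled fit and Xpc at -1.53 (adjusted p = 0.523).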
